A study of Mus musculus with 6 samples.

Results

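Messages of 3 HCN channel genes, Hcn2, Hcn3 and Hcn4, and of Pex5l, the gene of their auxiliary subunit Trip8b, were examined in mouse prefrontal cortex. The 4 genes were taken by symbol, through GENCODE M21 gene identifiers, from the 17889 rows of the deposited table, and all 4 were present. RNA sequencing of poly(A)-selected, stranded libraries covered 6 samples from C57BL/6J mice aged 28 days (P28). Of these, 3 were wild type (WT) and 3, titled Hetero, carried a mutant Cyfip2 genotype. The product of Cyfip2 belongs to the WAVE complex, which controls actin assembly. The labels do not name the Cyfip2 allele, and they do not say whether each sample is a separate animal, so p-values measure only how these samples vary, and part of that may be technical.

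HCN channels open when the membrane hyperpolarises and pass a mixed sodium and potassium current known as Ih. The channels are tetramers of HCN subunits, and cAMP bound to a domain in the cytoplasmic tail eases their opening. In cortical pyramidal neurons Ih sets the resting potential and shortens the summation of dendritic inputs. Trip8b binds the cyclic nucleotide-binding domain and the last residues of HCN subunits, steers the channels to or from the surface, and weakens the effect of cAMP.

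The coding sequences of the 3 channel genes were compared at the sites that define the family and the Trip8b contact, to show where the paralogs are alike and where they differ. The stretch around the pore signature is shown first, from GENCODE M21 transcripts on GRCm38, 5′ to 3′, with the codons of the selectivity filter in capitals.

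Hcn2, chr10:79728938-79728982, plus strand: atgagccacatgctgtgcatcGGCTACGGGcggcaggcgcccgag

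Hcn3, chr3:89150991-89151035, minus strand: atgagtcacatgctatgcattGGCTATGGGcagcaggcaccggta

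Hcn4, chr9:58855570-58855614, plus strand: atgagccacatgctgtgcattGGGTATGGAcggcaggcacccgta

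Between 36 and 39 of the 45 bases were the same in each pair, and all 3 capital codons specified the same residues in each pair. The end of the coding sequence, which encodes the tail that Trip8b contacts, is shown next, with the last 3 codons before the stop in capitals.

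Hcn2, chr10:79735508-79735540, plus strand: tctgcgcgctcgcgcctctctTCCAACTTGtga

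Hcn3, chr3:89147599-89147631, minus strand: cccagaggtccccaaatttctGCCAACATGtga

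Hcn4, chr9:58860731-58860763, plus strand: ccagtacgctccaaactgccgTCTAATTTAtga

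The last 3 codons of Hcn2 and Hcn4 specified the same 3 residues although only 6 of their 9 bases matched. In Hcn3, 1 of the 3 codons specified the same residue as in Hcn2 or Hcn4. The files measure message, not the binding of Trip8b.

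As facts of the whole series, 14969 genes averaged 10 or more normalized counts and entered the test, all 4 members among them. Column totals lay between 29879100 and 30735400, so the samples were taken as already scaled to each other, by a formula that is not stated. The spacing of the low values gave estimates of 25459092 to 43881764 reads per library, the highest for Hetero sample 3. That estimate had the least support: 15.5% of values under 60 fell on whole multiples of 1 step, against 23.3% to 28.1% in the other libraries. Cyfip2 was lower in every Hetero sample (18285 to 21237 normalized counts) than in every WT sample (27503 to 31933). Defining markers of cortical excitatory neurons such as Slc17a7, Neurod6 and Tbr1 were above the minimum. The list of 6 had a summed level of 176621 to 196280, most of it from Camk2a.

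Levels of the 4 genes were compared with each other per kilobase of the longest protein-coding transcript, since a longer message gives more reads. On this scale the order was Hcn2, Pex5l, Hcn3 and Hcn4 in each of the 6 samples. Hcn2 is the subunit with the strong cAMP response found widely in brain, and it had a level of 1398 ± 68.7 (SD, n = 6) normalized counts per kilobase, at percentile 90.9 of the tested genes. Pex5l followed at 1043 ± 55.8 (SD, n = 6), percentile 87.3. Hcn3, a subunit with a weak response to cAMP, lay near the middle of all genes at 186 ± 18.4 (SD, n = 6), percentile 47.5. Hcn4, the main subunit of the sinoatrial node and a subunit of thalamic neurons, was at 16.1 ± 1.79 (SD, n = 6), percentile 10.1.

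No pair of neighbours in this order overlapped: the samples ranged from 1316 to 1480 for Hcn2, from 963 to 1098 for Pex5l, from 163 to 211 for Hcn3 and from 14.02 to 19.1 for Hcn4. The place of Pex5l depended on the length used, because its annotation holds 12 transcripts, 9 of them protein coding. Divided by coding length, Pex5l (2250) stood above Hcn2 (1725), and divided by the union of its exons it stood further below (496 against 1398). The order of the 3 channel genes was the same under each of these lengths. In bulk tissue, fewer expressing cells and less message per cell cannot be told apart.

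**Figure D1:**
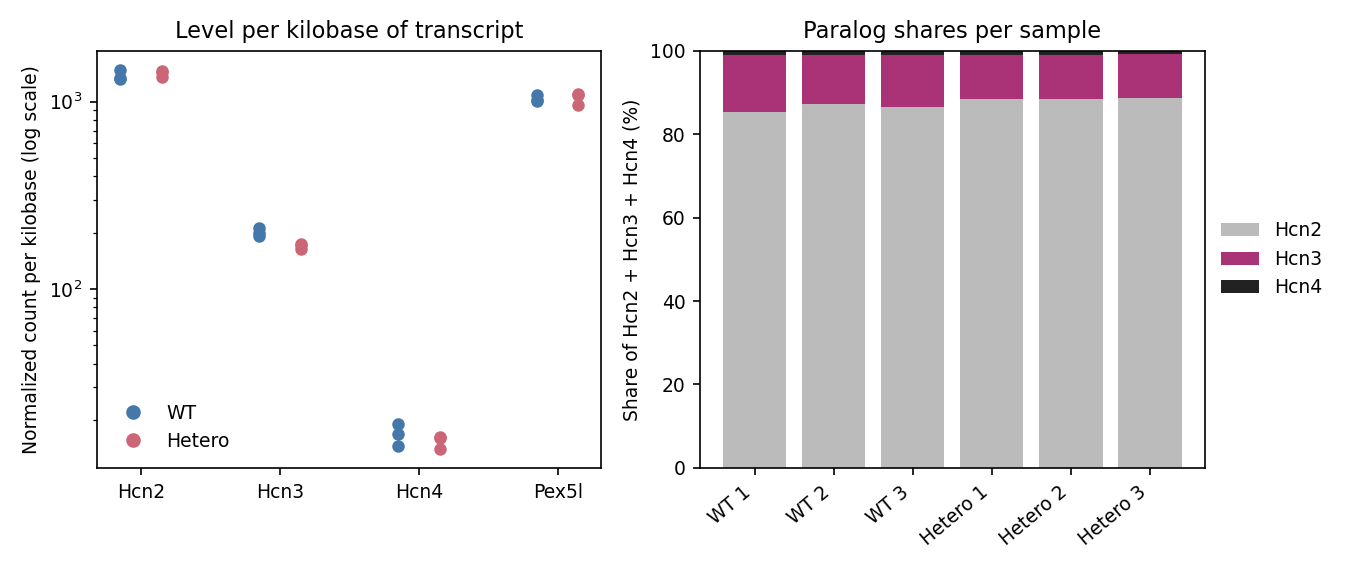
Left, normalized counts per kilobase of the longest protein-coding transcript (log axis) for the 4 genes, each point a sample. Right, share of each channel gene in the summed per-kilobase level of Hcn2, Hcn3 and Hcn4, in percent, each bar a sample; Hcn3 takes 11.7% to 13.7% in WT and 10.6% in each Hetero sample.

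Within the channel genes, Hcn2 made up most of the message in every sample. The shares are of the summed per-kilobase level of these 3 genes, not of all HCN channel message: other HCN channel message is not analysed here, and the shares and the ratios to this sum would be smaller with more genes in it. They take the deposited values as proportional to reads, since the authors' scaling is not stated. The Hcn2 share was 85.2%, 87.2% and 86.6% in WT samples 1 to 3 and 88.3%, 88.4% and 88.6% in Hetero samples 1 to 3. The groups did not overlap, and the Hetero samples lay closer together than the WT samples. The Hcn3 share was 13.7%, 11.7% and 12.5% in WT and 10.6% in each of the 3 Hetero samples. The mean difference, Hetero minus WT, was 2.11 percentage points for Hcn2 and -2.02 for Hcn3. The exact two-sided permutation test gave p = 0.1 for either share, the smallest that 3 against 3 samples allow, and 0.2 after Benjamini-Hochberg adjustment over the 4 within-sample quantities compared. Shares of 1 sum are not independent, so the pair of differences is a single observation.

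The Hcn4 share was the smallest in every sample. It was 1.09%, 1.12% and 0.943% in WT and 1.05%, 0.995% and 0.852% in Hetero, and the groups overlapped (exact permutation p = 0.4, 0.533 adjusted). Without division by length its mean was 1.93% in WT and 1.78% in Hetero. The summed level of the 3 channel genes was 1596 ± 88.2 in WT and 1603 ± 57.8 in Hetero (SD, 3 samples per group), so the totals differed by less than the spread between samples. The Hcn2 level per kilobase was 6.87 ± 0.606 times that of Hcn3 in WT and 8.34 ± 0.0233 times in Hetero (SD, 3 samples per group). This ratio is the same comparison as the shares in another form.

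Hcn3 (ENSMUSG00000028051, chromosome 3, 89146074 to 89160196 in GRCm38, minus strand, 8 exons in its coding transcript) was the member whose groups separated. WT samples 1 to 3 had 846, 797 and 772 normalized counts, and Hetero samples 1 to 3 had 654, 690 and 698. Every Hetero value was below every WT value. The WT mean was 805 ± 37.6 (SD, n = 3) and the Hetero mean 680 ± 23.6 (SD, n = 3). The log2 change was -0.24 ± 0.07 (SE), and the ratio of Hetero to WT was 0.846 (95% interval 0.755 to 0.948).

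In limma, Hcn3 had an unadjusted p of 0.00845, rank 94 of the 14969 tested genes, and a Benjamini-Hochberg adjusted p over all of them of 1.0. It therefore did not pass the threshold of 0.05, and 0% of the tested genes passed it in either direction. At an unadjusted p under 0.05, 1.66% of tested genes were higher and 2.17% lower in Hetero, and 1 of the 4 members, Hcn3, was among the latter. Groups did not overlap for 4.32% of tested genes on the lower side and for 4.4% on the higher side, and for 1 of the 4 members. Over 3 against 3 samples the exact permutation test of Hcn3 gave p = 0.1, its smallest possible value.

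**Figure D2:**
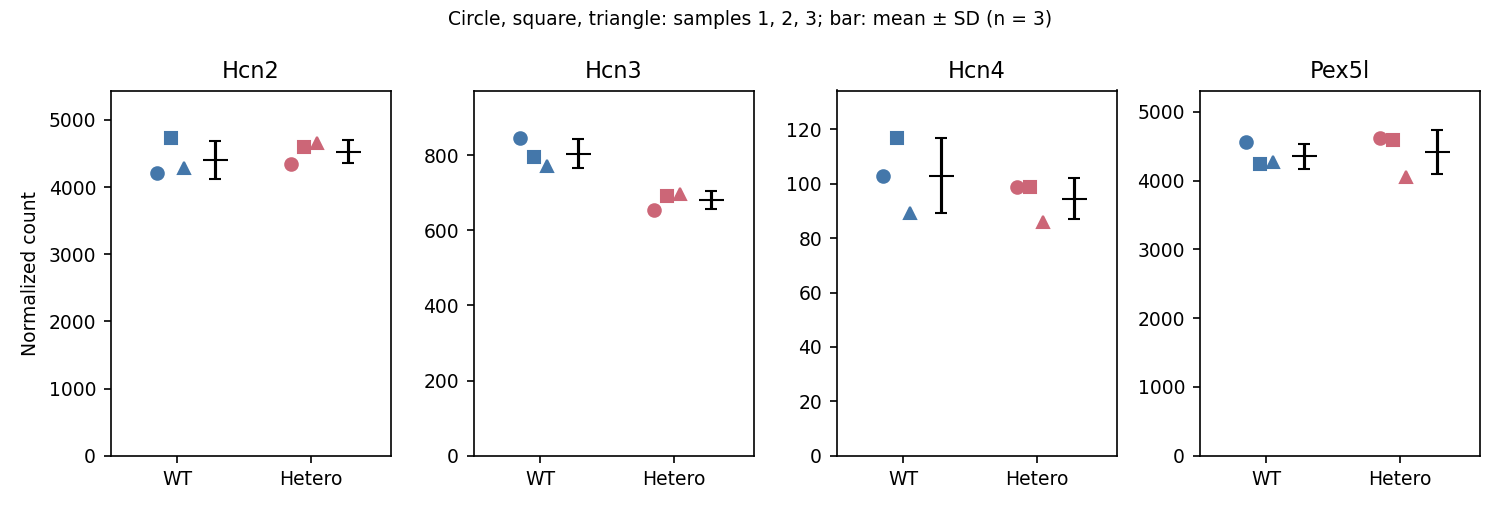
Normalized counts of Hcn2, Hcn3, Hcn4 and Pex5l in 3 WT and 3 Hetero samples, on linear axes from 0; each symbol is a sample and the bar beside it is the mean ± SD. The Hcn3 groups do not overlap (654 to 698 in Hetero, 772 to 846 in WT), while those of the other 3 genes do.

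Reads from neighbouring genes were looked at beside Hcn3. Pklr, the gene of liver and red cell pyruvate kinase, overlaps Hcn3 by 711 bases on the opposite strand, and it is not in the table. Clk2, a splicing kinase gene that lies 4599 bases away, had 1345 ± 67.7 normalized counts in WT and 1402 ± 18.6 in Hetero (SD, 3 samples per group). Its groups overlapped, and its log2 change was 0.06. With each library corrected for its dependence on GC content and length, an alternative chosen after seeing the data, the log2 change of Hcn3 was -0.24 and its groups did not overlap. The longest Hcn3 transcript has a GC content of 58.0%, and that of Hcn2 has 65.4%.

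Hcn2 (ENSMUSG00000020331, chromosome 10, 79716634 to 79736108, plus strand, protein coding) did not differ between the groups beyond the spread of the samples. WT samples 1 to 3 had 4205, 4728 and 4276 normalized counts, and Hetero samples 1 to 3 had 4338, 4593 and 4655. The highest and the lowest value of the series were both WT, so the Hetero range lay inside the WT range. The log2 change was 0.04 ± 0.06 (SE), and the 95% interval of the ratio ran from 0.935 to 1.13 (limma Benjamini-Hochberg adjusted p = 1.0). Polrmt, the mitochondrial RNA polymerase gene, lies 15 bases from Hcn2 on the opposite strand, and it had 1068 ± 101 in WT and 963 ± 161 in Hetero (SD, 3 samples per group).

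Hcn4 (ENSMUSG00000032338, chromosome 9, 58823412 to 58863175, plus strand, protein coding) was the least abundant member. WT samples 1 to 3 had 103, 117 and 89.2 normalized counts, and Hetero samples 1 to 3 had 98.6, 99.0 and 85.8. The third sample was the lowest in both groups, and the groups overlapped. The log2 change was -0.12 ± 0.16 (SE), with a ratio between 0.722 and 1.18 at 95% confidence (limma Benjamini-Hochberg adjusted p = 1.0). The libraries held an estimated 73.9 to 126 Hcn4 reads each, for which counting alone gives an error of 8.91% to 11.6%. The coefficient of variation between samples was 13.4% in WT and 7.96% in Hetero, so differences of this size could not be resolved for Hcn4 in these samples. The part of depth in that spread was not tested.

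Pex5l (ENSMUSG00000027674, chromosome 3, 32949408 to 33143247, minus strand, protein coding) also overlapped between the groups. WT samples 1 to 3 had 4564, 4237 and 4269 normalized counts, and Hetero samples 1 to 3 had 4618, 4589 and 4051. Hetero samples 1 and 2 were the highest of the series and Hetero sample 3 the lowest. The log2 change was 0.02 ± 0.07 (SE), and the 95% interval of the ratio ran from 0.915 to 1.12 (limma Benjamini-Hochberg adjusted p = 1.0). Without Hetero sample 3 the log2 change was 0.08, with an unadjusted limma p of 0.168. Trip8b occurs as splice forms that differ in their effect on channel trafficking, and the gene-level values do not separate them.

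The level of the auxiliary subunit was set against that of the channel genes within each sample. Per kilobase, Pex5l was 0.703, 0.593 and 0.656 times the sum of Hcn2, Hcn3 and Hcn4 in WT samples 1 to 3, and 0.714, 0.671 and 0.585 times in Hetero samples 1 to 3. The groups overlapped, and the mean log2 ratio differed by 0.01 (exact permutation p = 0.8, also 0.8 adjusted). The size of the ratio rests on the transcript length: its mean over the 6 samples was 0.654 with the longest transcript, 1.09 with the coding length and 0.312 with the union of exons.

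**Figure D3:**
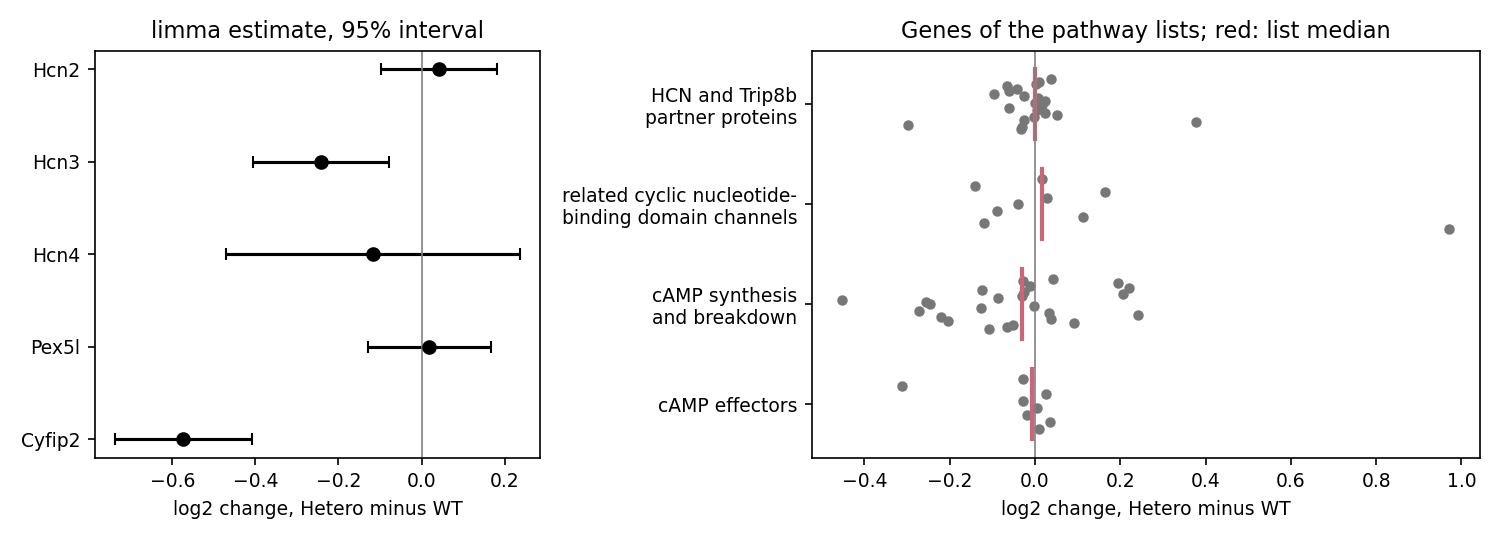
Left, log2 change (Hetero minus WT, x axis) of the 4 genes and of Cyfip2, with the limma 95% interval; of the 4, the interval of Hcn3 alone (-0.41 to -0.08) leaves out 0. Right, log2 change of each tested gene (points) in 4 lists of related genes, with the list median in red; the medians lie between -0.03 and 0.02.

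Genes around the channels were described from lists of partners, relatives and the cAMP pathway. Over all tested genes the median log2 change was -0.002, and 50.9% of fitted values were below 0. Proteins that bind HCN subunits or Trip8b, which include the AP-2 adaptor, clathrin, filamin A and the endosomal GTPase Rab8b, had 22 of 24 members tested, 0 of them passing in either direction. Fitted values were higher for 11 and lower for 11. The median log2 change lay just below 0 at -0.0004. The groups of 1 of the 22, Ap2b1, which was named after its values were seen, did not overlap (lower in Hetero). Of all tested genes, 4.32% did so on the lower side, a share close to that of the list. Lrmp, whose product modulates the cAMP response of HCN4, had a log2 change of 0.38 ± 0.33 (SE) at 32.4 ± 11.2 normalized counts in WT and 42.8 ± 17.0 in Hetero (SD, 3 samples per group). Its relative Mrvi1 was at -0.30 ± 0.19 (SE), while Grasp, the gene of the scaffold tamalin, was at 0.05 and the adaptor subunit Ap2a2 at -0.10.

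Channels that share the cyclic nucleotide-binding domain fold had 9 of 14 members tested, 0 of them passing, with 5 fitted higher, 4 lower and a median log2 change of 0.02. Kcnh1, which encodes the potassium channel Eag1, had 4414, 4266 and 4281 normalized counts in WT and 4438, 4772 and 4807 in Hetero. Its groups did not overlap by a narrow margin, and its log2 change was 0.11 ± 0.05 (SE, limma unadjusted p = 0.0656). It was the 1 gene of the 9 with separated groups, where 4.4% of all tested genes separated on the higher side. Cnga2, a channel of olfactory neurons, was close to the minimum level at 8.31 ± 4.92 in WT and 17.7 ± 9.56 in Hetero (SD, 3 samples per group). The ERG channel genes Kcnh2 and Kcnh6 were at -0.09 and -0.14 on the log2 scale.

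Enzymes that make or break down cAMP, the direct ligand of the channels, had 25 of 26 members tested and 0 passing. Of these, 8 were fitted higher and 17 lower, with a median log2 change of -0.03. The groups of 5 members did not overlap on the lower side, where 4.32% of all tested genes did not, and those of 1 on the higher side (4.4% of all). Adcy5, an adenylyl cyclase, had 5577, 5818 and 5479 normalized counts in WT and 4991, 4799 and 4850 in Hetero. Every Hetero value was below every WT value, with a log2 change of -0.20 ± 0.05 (SE, limma unadjusted p = 0.00263, Benjamini-Hochberg adjusted p = 1.0). Pde3b, a phosphodiesterase, had 332, 460 and 447 in WT and 283, 309 and 304 in Hetero, a log2 change of -0.45 ± 0.13 (SE), with WT sample 1 close to the Hetero samples. Pde8b, a phosphodiesterase with high affinity for cAMP, had 3047, 2749 and 2736 in WT and 3280, 3228 and 3240 in Hetero. This was the separated gene on the higher side, with a log2 change of 0.19 ± 0.06 (SE), and the calcium-stimulated cyclase gene Adcy8 stood at 0.24 ± 0.11 (SE) with overlapping groups. Effectors of cAMP, the subunits of protein kinase A and the Epac genes, had 8 of 8 members tested and 0 passing, with 4 fitted higher and 4 lower. The largest difference among them was that of Rapgef3, the gene of Epac1, at -0.31 ± 0.19 (SE), while the kinase subunit genes Prkacb, Prkar2b and Prkar1a lay within 0.04 of 0 on the log2 scale.

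Levels of cell type markers were set beside those of Hcn3, since the tissue is a mixture. The summed level of 10 deep-layer excitatory neuron markers was 18635 to 19678 in WT and 16250 to 17016 in Hetero. Fitted values were lower for 9 of its 10 genes (median log2 change -0.15). The groups of 3 genes did not overlap on the lower side, against 4.32% of all tested genes. The marker lists were chosen with earlier results of these data known, so such counts describe the lists and test nothing. Among the members, the groups of Hcn3 separated on the lower side, and those of Hcn2, Hcn4 and Pex5l overlapped. A relation of these genes to the deep-layer list was not tested. The sum of 6 cortical excitatory neuron markers was 188208 to 196280 in WT and 176621 to 182696 in Hetero. Camk2a made up most of this sum, at 124521 to 129923 in WT and 114153 to 123010 in Hetero. Of these 6 genes, 4 were fitted lower and 2 higher, and the level averaged over them overlapped between the groups. The groups of 2 of the genes, Slc17a7 and Camk2a, did not overlap on the lower side, against 4.32% of all tested genes. The sum of 8 fast-spiking interneuron markers was 24147 to 24545 in WT and 25894 to 26092 in Hetero. Of these 8 genes, 5 were fitted higher and 3 lower, 0 passed, and their averaged level overlapped as well. The groups of 3 of them did not overlap on the higher side, against 4.4% of all tested genes. The 7 markers of oligodendrocyte precursors all had lower fitted values (median -0.23). The groups of 4 of them did not overlap on the lower side, against 4.32% of all tested genes. The sums of all 7 overlapped, at 9273 to 11109 in WT and 7965 to 9447 in Hetero. Microglia markers had 7 of 7 lower fitted values, and their sums overlapped as well (9948 to 11122 and 9261 to 10322). Their averaged level did not overlap, by a narrow margin (0.010 to 0.111 log2 units in WT, -0.110 to 0.006 in Hetero). No single gene among these 7 microglia markers separated the groups.

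The remaining lists also overlapped in their sums. Mature oligodendrocyte markers, with 8 of 10 lower fitted values, summed to 92209 to 148585 in WT against 97538 to 127441 in Hetero. Astrocyte markers, with 5 of 7 lower, summed to 154088 to 172764 against 146422 to 158973. Thalamus markers, of which Gbx2 and Shox2 were absent from the table, summed to 2108 to 2572 against 2130 to 2465, and striatum markers to 4379 to 4911 against 4722 to 5056. Meninges and choroid plexus markers were fitted higher in 7 of 7 tested cases, with sums of 1773 to 2944 in WT and 2372 to 2985 in Hetero. Their averaged level did not overlap, at -0.52 to -0.03 log2 units in WT and 0.18 to 0.38 in Hetero. The groups of 2 of these genes did not overlap on the higher side, against 4.4% of all tested genes. Groups also did not overlap for 1 astrocyte marker (lower) and for 1 striatum marker on each side. Of all tested genes, 4.32% separated on the lower and 4.4% on the higher side. The part of any of these lists in the Hcn3 difference was not tested.

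**Figure D4:**
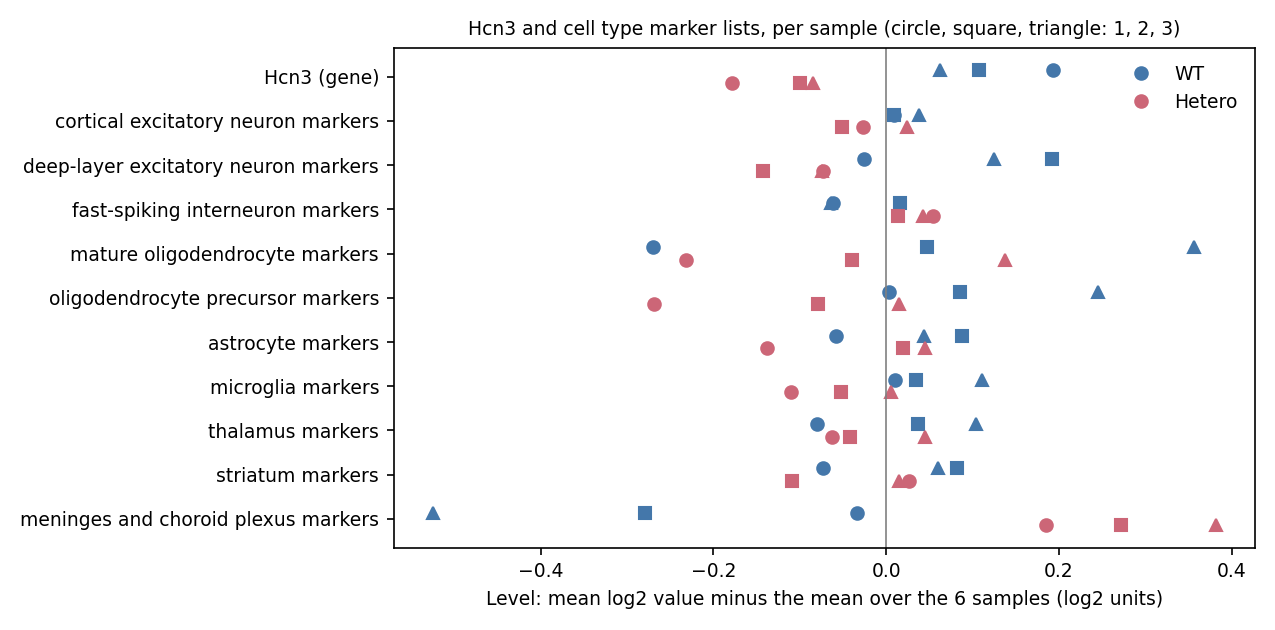
Level per sample of Hcn3 (top row) and of 10 marker lists; the x axis is the log2 value minus the mean over the 6 samples, averaged over a list's tested genes, and symbols mark samples 1, 2 and 3 of each group. Hcn3 lies between 0.06 and 0.19 in WT and between -0.18 and -0.08 in Hetero; the levels of deep-layer neuron, microglia and meninges lists also do not overlap between the groups.

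Patterns most like those of the members were sought among 11794 genes with a mean of at least 100, by Pearson's r of the log2 values over the 6 samples, as a description without a test. For Hcn3 the closest were Oaf (r = 0.98), Vac14 (0.96), a scaffold of the phosphoinositide kinase PIKfyve, and Fcgr3 (0.96), an Fc receptor gene of microglia. Oaf had 349, 330 and 331 normalized counts in WT and 268, 275 and 292 in Hetero, so it separated the groups as Hcn3 did. Fcgr3, which is not in the microglia marker list, had 347, 355 and 330 in WT and 282, 293 and 292 in Hetero. It separated the groups too, and both genes were picked for their likeness to Hcn3. An r over 0.9 with Hcn3 was reached by 29 genes, and with Hcn2 by 67, led by Arid5a (0.99), Hacd1 (0.97) and the proteasome subunit gene Psma3 (0.97). Hcn4 had 118 such genes, led by Manea, Adgrl3 and Scrn1 (0.99 each). Pex5l had the most, 460 genes, led by Prickle2 (1.0), a planar polarity gene, Bod1l (1.0) and Alcam (0.99), an adhesion molecule. Prickle2 had 8065, 7136 and 7185 normalized counts in WT samples 1 to 3 and 8246, 8097 and 6523 in Hetero samples 1 to 3. Like Pex5l, it was lowest in Hetero sample 3 and, within WT, highest in sample 1. All genes are measured in the same 6 libraries with the same scaling, and over so few samples many genes reach such values of r.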

How the data were processed

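Per the labels, poly(A) messenger RNA libraries were sequenced from 3 WT and 3 Hetero samples, grouped by sample title. The authors deposited 1 table of normalized counts, treated here as a scaled signal: values are not whole and totals are nearly equal. DESeq2 1.19.11, Salmon 0.11.2, GRCm38 and R 3.6.0 are listed in the submitters' processing notes with no role; the scaling formula is not given in the sources used here. In each library, a single step divided 15.5% to 28.1% of values under 60 into whole multiples (tolerance 0.02), so reads were estimated, not recovered, and no count test was run.

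Log2(value + 1) of genes with a mean of at least 10 went into limma 3.58.1 (R 4.3.3; intensity trend, robust, two-sided, Benjamini-Hochberg over all genes, threshold 0.05), so log2 changes understate those of low genes. Identifiers were matched to GENCODE M21 (17875 matched, 14 did not). In simulated data for this comparison (14969 genes, 50 changed at each size), 18% of 1.25-fold, 54% of 1.5-fold and 88% of 2-fold changes were recovered, with 3 false calls. Changes of up to 3-fold were planted together there, which eases the adjusted threshold, whereas 0 genes passed in the measured data. Recovery in the measured data may therefore be lower. Members and lists were chosen with earlier results of these data known. Named were the members, Cyfip2, the 3 genes most like each member (no predicted genes or pseudogenes), and, per pathway list, the 2 of smallest p per direction; Clk2, Polrmt and Pklr were named for their position and the marker genes as examples. From the marker lists, 1 gene is not reported here. Alternatives covered moderation, scaling, filter, pseudocount, block, length and each sample left out.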

Additional observations from a re-analysis of the deposited data

How the results depend on the processing

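The log2 changes of Hcn2, Hcn3 and Hcn4 kept their direction in all 16 alternatives, and no member passed the threshold in any. Leaving out 1 sample gave -0.27 to -0.21 for Hcn3 (limma unadjusted p 0.0100 to 0.0366), 0.01 to 0.09 for Hcn2, -0.21 to -0.02 for Hcn4, and -0.014 to 0.080 for Pex5l, whose sign turned in 3 of the alternatives. The adjusted p of Hcn3 ranged from 0.742 to 1.0. The same omissions gave -2.47 to -1.49 percentage points for the Hcn3 share, 1.56 to 2.52 for Hcn2, -0.14 to -0.03 for Hcn4, and -0.053 to 0.093 for the log2 ratio of Pex5l to the channel genes, whose sign turned in 3. Other lengths kept each direction.

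Against 0 genes past the threshold higher and 0 lower, 1 higher (Jun) and 1 lower (Cyfip2) passed with the replicate block, where Hcn3 had -0.24 with an adjusted p of 0.742. The labels state no pairing by replicate number, and deviations over 3 samples per group cannot settle it. Those of same-numbered samples correlated at -0.005, 0.004 and 0.227, the last being the largest of all pairs. WT sample 1 correlated best with Hetero sample 2 (0.181). The block moved no call of a member. Chosen after seeing the data, removal of GC content and length trends gave 0 higher and 1 lower (Cyfip2). Also chosen then, the fit without sample 3 of either group gave 3 higher (Jun, Gm7334 and AC149090.1) and 1 lower (Cyfip2), with Hcn3 at -0.29. Leaving out 1 sample gave 0 to 1 higher and 0 to 1 lower. The cause was not tested. Of the 4 members Hcn4 had the fewest estimated reads, 73.9 to 126 per library.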
